A study of Mus musculus with 10 samples.

Results

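Wls and 7 further genes of the Wnt secretion route were followed in colon tumors of mice, and all 8 were found by name among the 16875 gene names of the deposited FPKM table. FPKM, fragments per kilobase of transcript scaled to the mapped reads of the library, is a level per transcript length, so that values of different genes can be set side by side. The table holds 10 macrodissected colon tumors of C57Bl6 mice in which azoxymethane (AOM, a carcinogen) and 3 rounds of dextran sulfate sodium (DSS, which injures the colon epithelium) had driven tumor growth. The 5 control tumors carried the conditional Wls allele (Wls flox/flox) without Cre, and the 5 Villin-Wls cKO tumors carried Wls flox/flox together with Villin-Cre ERT2, a tamoxifen-activated Cre recombinase under the promoter of the intestinal epithelial gene Vil1. Tamoxifen was injected 5 times into mice whose tumors were established, and tumors for RNA sequencing were collected 30 days after the first injection. Mice were 6 to 10 weeks old at the start and preferentially female. Per the study, control tumors with intact Wnt secretion had not been exposed to tamoxifen unless stated otherwise. The number of mice behind the tumors is not given in the sources used here, so that p-values measure the spread between tumors. The question of the comparison was what these tumors express once the epithelium can no longer secrete Wnt ligands.

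Wnt ligands are lipid-modified in the endoplasmic reticulum by Porcn, an acyltransferase that attaches palmitoleate. The modified ligand binds Wls, a membrane protein that carries it through the Golgi to the cell surface, while p24 proteins such as Tmed2 and Tmed5 act as cargo receptors at the step from the endoplasmic reticulum to the Golgi. After release of the ligand Wls is taken up again, and retromer, a complex of Vps35, Vps26 and Vps29, works with the sorting nexin Snx3 to return it from endosomes to the Golgi.

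In these tumors Wls fell, and none of the other 7 genes passed the test. Wls reached 8.73% of its control mean in Villin-Wls cKO tumors. Porcn had similar group means but split the Villin-Wls cKO tumors, with 2 of them above and 3 below every control tumor. Tmed2, Vps35, Vps26a, Vps29 and Snx3 had log2 changes between -0.0048 and 0.14, and their 95% intervals together covered folds from 0.896 to 1.22. Every change in the text is Villin-Wls cKO minus control on the mean of log2(FPKM + 1), was tested with limma over all genes and was called at a Benjamini-Hochberg adjusted p under 0.05. Of 16757 genes tested, 1822 were called (10.9%), and 1 called member of 8 is close to that share. Among all calls 6.12% of the genes tested were higher and 4.75% lower in Villin-Wls cKO tumors, a split (56.3% of calls higher) that became 77% with equal FPKM sums and 44.3% with quantile normalization.

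Some tumors stood apart, and the groups differ in more than genotype. Villin-Wls cKO tumors 2 and 3 held Krt5, a keratin of stratified squamous epithelium, at 470 and 669 FPKM, while the other 8 tumors had at most 0.315 FPKM. Over the 9 squamous markers of 11 listed that the table holds, the summed level was 1071 and 1374 FPKM in these tumors, 14.1 to 54.6 FPKM in the other Villin-Wls cKO tumors and 44.5 to 216 FPKM in controls, and no marker was at 0 in every tumor. Xist, expressed from the inactive X chromosome of females, lay between 439 and 701 FPKM in all Villin-Wls cKO tumors and at or below 0.420 FPKM in all control tumors, and the Y-linked Eif2s3y showed the reverse, at most 0.138 against at least 30.4 FPKM. Genotype, sex and tamoxifen therefore cannot be told apart here. Since these are bulk tissues, fewer cells of a type and less RNA per cell cannot be told apart either.

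Wls lies on chromosome 3 (GRCm38, chr3:159839672-159938664, plus strand), with 12 exons in the transcript Wls-201. The study lists the conditional allele as E1flox, a name that points to exon 1, which spans chr3:159839672-159840047 and holds the first 106 of 1623 coding bases (6.53%). That stretch, from chr3:159839942-159840047, is shown because it is the start of the protein that the allele was built around, as GENCODE M21 gives it, 5′ to 3′ on the plus strand and with the start codon in capitals.
Wls exon 1, coding part: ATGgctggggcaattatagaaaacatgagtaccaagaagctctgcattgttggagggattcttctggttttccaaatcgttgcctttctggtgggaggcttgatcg
A gene-level FPKM does not tell from which exons the remaining reads came.

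Control tumors 1 to 5 held Wls at 76.4, 72.4, 61.3, 74.7 and 79.9 FPKM, a mean of 72.9 ± 7.06 FPKM (SD, n = 5). Villin-Wls cKO tumors 1 to 5 held 2.81, 11.6, 11.7, 3.61 and 2.03 FPKM, a mean of 6.37 ± 4.89 FPKM (SD, n = 5). The groups did not overlap, which was also so for 10.1% of all genes tested, and the highest Villin-Wls cKO tumor stayed far below the lowest control. The log2 change was -3.59 ± 0.39 (SE), with a 95% interval from -4.46 to -2.72 and an adjusted p of 0.000337 (limma). Of the 16757 genes 3 had a larger fall, among them the Y-linked Eif2s3y at -5.30, a gene that differs by the sex of the tumors. Ordered by limma p-value, Wls was in place 133. In the control tumors Wls was higher than 88.6% of genes tested by group mean, and in Villin-Wls cKO tumors it was higher than 34.5%.

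The residual Wls level differed between the Villin-Wls cKO tumors. Relative to the control mean, tumors 1, 4 and 5 kept 3.86%, 4.95% and 2.79%, whereas tumors 2 and 3 kept 16.0% and 16.1%. These are the tumors with squamous keratins. Markers of several other cell types, though not of all, were also highest in this pair within the group. Endothelial markers, 7 of 7 in the table, summed to 71.8 and 60.0 FPKM in tumors 2 and 3, against 26.8 to 38.1 FPKM in tumors 1, 4 and 5 and 25.1 to 65.6 FPKM in controls. Neutrophil markers, 6 of 6, summed to 1241 and 1012 FPKM, against 591 to 842 FPKM in the other 3 and 227 to 775 FPKM in controls. For macrophage markers, 8 of 8, the sums were 358 and 414 FPKM, against 207 to 332 FPKM and 223 to 385 FPKM. Fibroblast markers, 10 of 10, reached 1204 FPKM in tumor 2, while tumor 3 at 694 FPKM was close to tumors 1 and 4 at 650 and 652 FPKM, and tumor 5 was at 412 FPKM. In every tumor Col3a1 was the largest part of the fibroblast sum, at 781 FPKM in tumor 2 and 341 FPKM in tumor 3. Its values are identical to those of another gene name, so they cannot be assigned to Col3a1 alone. Control tumors ranged from 305 to 1058 FPKM for fibroblast markers, while their Wls stayed between 61.3 and 79.9 FPKM. Epithelial markers summed to 9028 and 10489 FPKM in tumors 2 and 3, and to 8404 to 10482 FPKM in the other 3. T cell markers, 9 of 9 in the table, summed to 44.7 and 36.0 FPKM in tumors 2 and 3. They summed to between 21.9 and 26.2 FPKM in the rest of the group. Among them Trac and Lck have values identical to those of other gene names. Smooth muscle markers, 7 of 7, were instead highest in tumor 4, at 164 FPKM against 125 and 156 FPKM in tumors 2 and 3. B and plasma cell markers, 5 of 6, were also highest in tumor 4, at 355 FPKM against 76.5 and 344 FPKM in tumors 2 and 3. No marker of these lists was at 0 in every tumor. The part of these cell types in the residual Wls level was not tested. Without tumors 2 and 3 the log2 change of Wls was -4.29, with a 95% interval from -4.62 to -3.96 and an adjusted p of 1.43e-06 (limma). As tumors 2 and 3 had the highest Wls of their group, leaving them out had to enlarge the fall, and the refit is a description.

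**Figure D1:**
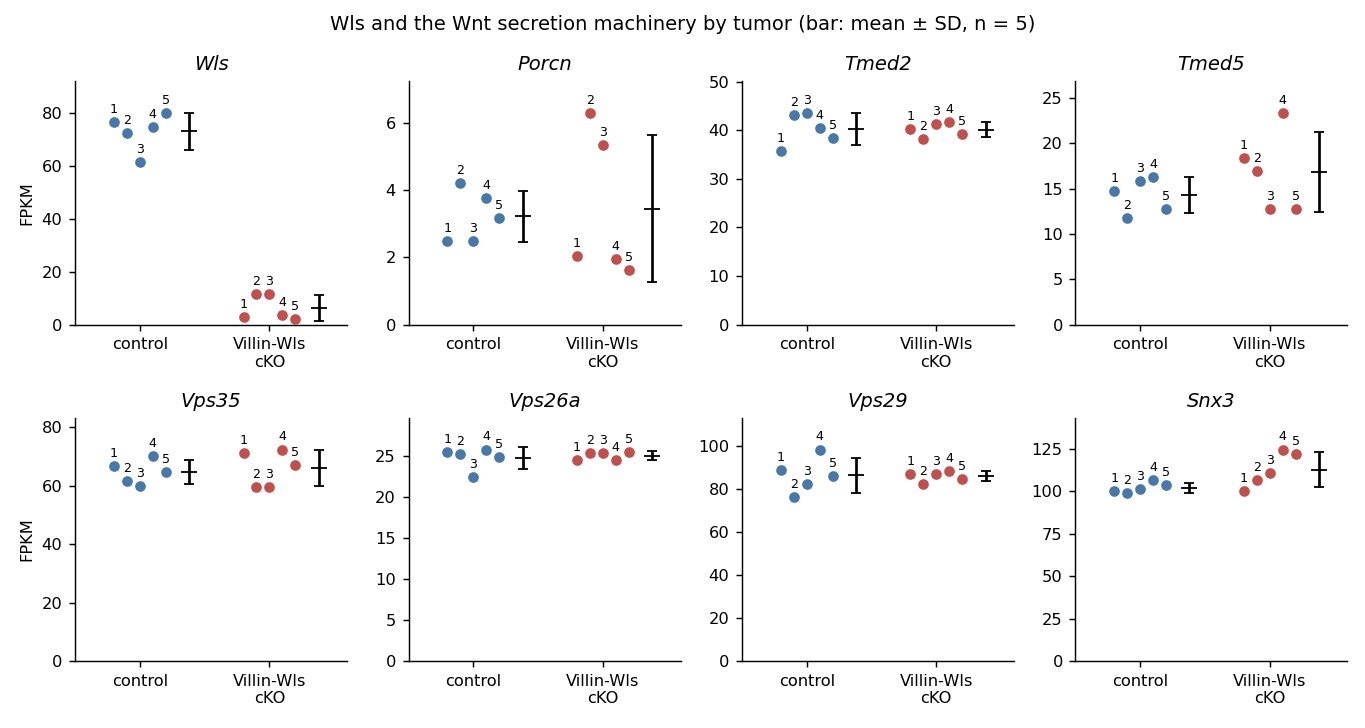
FPKM of the 8 genes in each tumor (panels, linear axes from 0), with control tumors in blue, Villin-Wls cKO tumors in red, numbers giving the tumor of its group and black bars the mean ± SD of 5 tumors. Wls lies at 61.3 FPKM or more in controls and at 11.7 FPKM or less in Villin-Wls cKO tumors, Porcn splits the Villin-Wls cKO tumors, and the other panels overlap between the groups.

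Vil1, the gene whose promoter drives the Cre and a marker of the intestinal brush border, was expressed in every tumor. It lay between 93.6 and 158 FPKM in controls and between 132 and 209 FPKM in Villin-Wls cKO tumors, a log2 change of 0.49 that did not pass the test (adjusted p = 0.083, limma). All 12 epithelial markers were in the table, and 1 of them was called, beside 10.9% of all genes tested and 6.12% called higher. It was Krt20, a keratin of differentiated colonocytes, which was higher at a log2 change of 0.91 (adjusted p = 0.016, limma). Next to Wls, Depdc1a was the only protein-coding gene of the table whose body lies within 500 kb. It ranged from 2.24 to 3.32 FPKM in controls and from 1.63 to 3.25 FPKM in Villin-Wls cKO tumors, so that the groups overlapped.

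Porcn, on the X chromosome (chrX:8193848-8206525, minus strand), was the least abundant member in either group. Control tumors 1 to 5 held 2.49, 4.20, 2.50, 3.75 and 3.16 FPKM (3.22 ± 0.760, SD, n = 5). Villin-Wls cKO tumors 1 to 5 held 2.03, 6.29, 5.33, 1.95 and 1.63 FPKM (3.45 ± 2.19, SD, n = 5). Tumors 2 and 3 were above and tumors 1, 4 and 5 below the whole control range, and no Villin-Wls cKO tumor fell inside it. The log2 change of -0.04 had a 95% interval from -0.70 to 0.62 (adjusted p = 0.954, limma), wide enough to include folds from 0.615 to 1.54. Without tumors 2 and 3 the change was -0.54, with an interval from -0.91 to -0.16, and it did not pass after adjustment (adjusted p = 0.0939, limma). Leaving out the tumors with the highest Porcn of the group had to lower the change, so this refit too is a description.

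Wls and Porcn deviated from their group means in the same tumors. After each group's mean was removed, Pearson's r between them was 0.93 over 10 tumors, and 0.36 over the 8 tumors without Villin-Wls cKO tumors 2 and 3. Among 11792 other genes with a mean of at least 5 FPKM, those most like Wls by this measure were Lypd3 (r = 0.97), Aqp3 (r = 0.97), Krt5 (r = 0.97), Ltf (r = 0.96) and Calml3 (r = 0.96). Krt5 belongs to the squamous marker list, Aqp3 is a water and glycerol channel, Ltf is the secreted iron-binding protein lactoferrin, and Calml3 is a calmodulin-like protein of epithelia. All 5 were higher in Villin-Wls cKO tumors 2 and 3 than in the other 8, as with Aqp3 at 30.1 and 49.1 FPKM against at most 0.314 FPKM. Without that pair of tumors their r with Wls lay between 0.12 and 0.52, so that the likeness rests on those tumors, which share a group and their squamous genes.

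**Figure D2:**
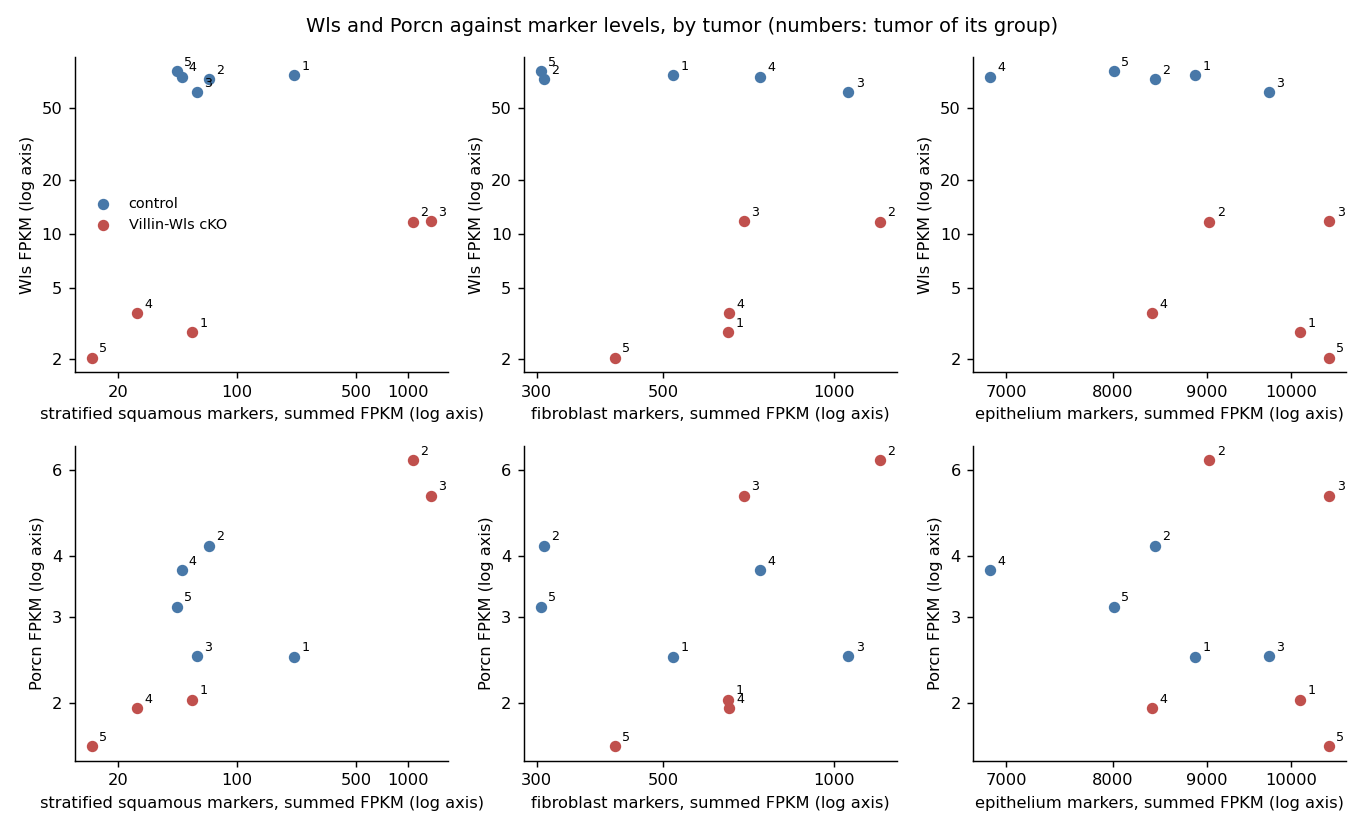
Wls (top) and Porcn (bottom) FPKM against the summed FPKM of squamous, fibroblast and epithelial markers in each tumor, all axes logarithmic, control tumors in blue, Villin-Wls cKO tumors in red and numbers giving the tumor of its group. Villin-Wls cKO tumors 2 and 3 stand to the right on the squamous axis, at 1071 and 1374 FPKM, and above the other 3 tumors of their group for both genes.

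The p24 members differed in how tightly they were held. Tmed2 (chr5:124540695-124550506, plus strand) lay at 35.7, 43.2, 43.6, 40.6 and 38.3 FPKM in control tumors 1 to 5 and at 40.3, 38.3, 41.3, 41.8 and 39.1 FPKM in Villin-Wls cKO tumors 1 to 5. All Villin-Wls cKO tumors fell inside the control range. Its log2 change was -0.0013, with a 95% interval from -0.15 to 0.15 (adjusted p = 0.995, limma).

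Tmed5 (chr5:108106366-108132620, minus strand, overlapping Mtf2 on the other strand) was at 14.7, 11.8, 15.8, 16.3 and 12.7 FPKM in the controls and at 18.4, 17.0, 12.8, 23.4 and 12.8 FPKM in Villin-Wls cKO tumors. Tumors 1, 2 and 4 of the latter were above every control, and tumors 3 and 5 were inside the control range. The change of 0.20 had an interval from -0.16 to 0.57 and was not called (adjusted p = 0.493, limma).

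Retromer transcripts hardly moved. Vps35 (chr8:85260392-85299802, minus strand, overlapping Orc6 on the other strand), the scaffold that holds the complex together, lay at 66.7, 61.7, 59.7, 70.1 and 64.5 FPKM in control tumors 1 to 5 and at 71.2, 59.5, 59.5, 72.3 and 67.1 FPKM in Villin-Wls cKO tumors 1 to 5. Tumors 1 and 4 were just above and tumors 2 and 3 just below the control range. The log2 change was 0.03, from -0.14 to 0.20 (adjusted p = 0.864, limma).

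Vps26a (chr10:62455235-62486805, minus strand), the subunit that contacts cargo together with Snx3, was the steadiest member. Control tumors 1 to 5 held 25.5, 25.2, 22.5, 25.8 and 25.0 FPKM, and Villin-Wls cKO tumors 1 to 5 held 24.5, 25.4, 25.4, 24.6 and 25.6 FPKM. All Villin-Wls cKO values lay inside the control range. The change of 0.02, from -0.11 to 0.14 (adjusted p = 0.893, limma), came with a within-group SD of 0.06 on the log2 scale, and only 0.597% of genes tested had a smaller one. Vps26b, the second gene for this subunit, was at 23.1 ± 2.33 FPKM in controls and 24.2 ± 3.29 FPKM in Villin-Wls cKO tumors (SD, n = 5, change 0.06, adjusted p = 0.787, limma), but its values in the table are identical to those of another gene name, so they cannot be assigned to Vps26b alone.

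Vps29 (chr5:122354369-122364984, plus strand, overlapping Fam216a on the other strand), the subunit that binds regulators of retromer, held 89.0, 76.4, 82.3, 98.3 and 86.1 FPKM in control tumors 1 to 5 and 87.0, 82.5, 87.1, 88.1 and 84.5 FPKM in Villin-Wls cKO tumors 1 to 5. The Villin-Wls cKO tumors again fell inside the control range. Its change was -0.0048, from -0.16 to 0.15 (adjusted p = 0.980, limma). Whether strand was used in quantification is not given in the sources used here, which concerns the genes that overlap another on the opposite strand.

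Snx3 (chr10:42502030-42535381, plus strand) was the most abundant member, and the one whose interval came closest to leaving 0. Control tumors 1 to 5 held 100.3, 98.8, 101.2, 106.5 and 103.7 FPKM, and Villin-Wls cKO tumors 1 to 5 held 100.2, 106.6, 110.9, 124.6 and 122.1 FPKM. Of these, 4 were above every control, one of them by a narrow margin. The log2 change of 0.14 had an interval from -0.01 to 0.29 and was not called (adjusted p = 0.235, limma).

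**Figure D3:**
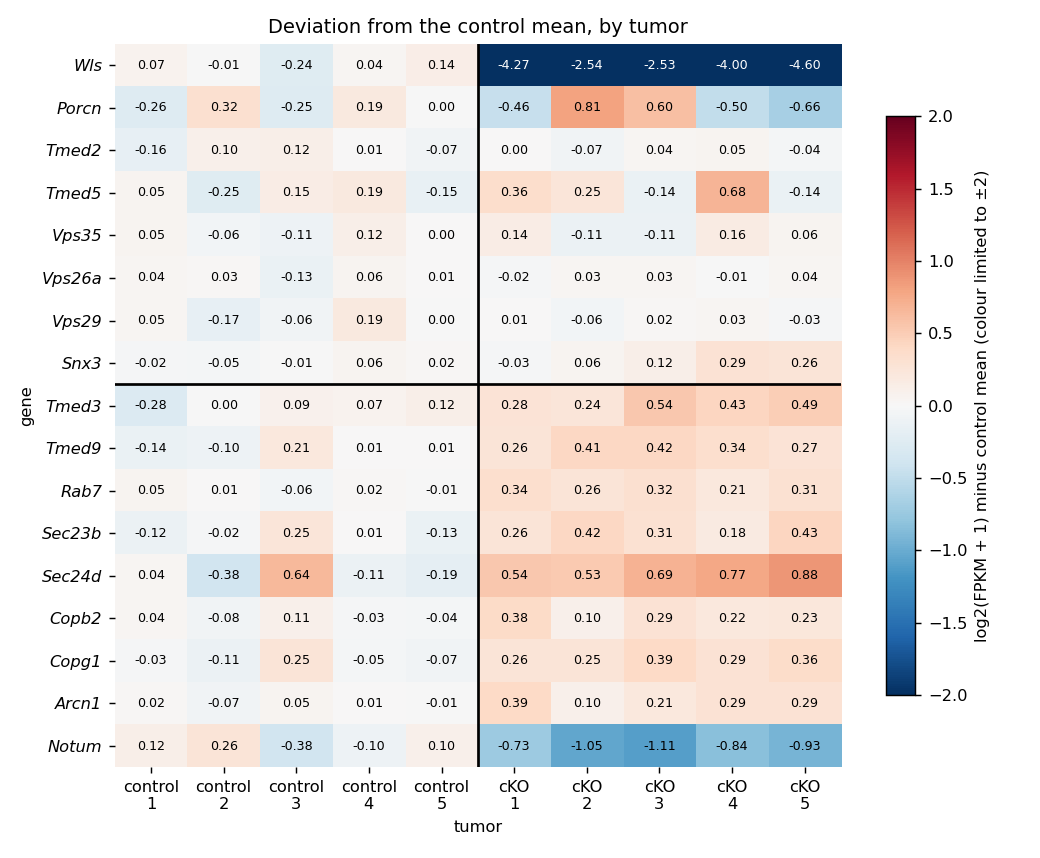
Deviation of log2(FPKM + 1) from the control mean for each gene (rows) and tumor (columns, control 1 to 5 and Villin-Wls cKO 1 to 5), with red above and blue below the control mean, colours limited to 2 and values printed in the cells, the 8 members above the line and the 9 genes of the wider lists that passed the test below it. Porcn deviates by 0.81 and 0.60 in Villin-Wls cKO tumors 2 and 3 and by -0.46, -0.50 and -0.66 in tumors 1, 4 and 5, while Vps26a stays within 0.13 of the control mean in all 10 tumors.

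Ordered by group mean, the control levels ran Snx3, Vps29, Wls, Vps35, Tmed2, Vps26a, Tmed5 and Porcn. In all 5 control tumors each gene was higher than the next in this order, although the ranges over tumors overlapped between Vps29 and Wls and between Wls and Vps35. In Villin-Wls cKO tumors the order of the other 7 genes was the same, and Wls stood between Tmed5 and Porcn. Only Wls and Porcn had overlapping ranges there, with Wls higher than Porcn within each of the 5 tumors. Snx3 exceeded Vps29 by a factor of 1.18 in controls and 1.31 in Villin-Wls cKO tumors by ratio of group means.

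The balance between subunits was compared per tumor with exact two-sided permutation tests over 252 arrangements, which can give no p below 0.00794. The ratio of Vps29 to Vps35 was 1.34 ± 0.0629 in controls and 1.31 ± 0.109 in Villin-Wls cKO tumors (SD, n = 5, exact p = 0.587). Vps35 to Vps26a stood at 2.60 ± 0.101 and 2.63 ± 0.290 (SD, n = 5, exact p = 0.921). Tmed2 to Tmed10, another p24 protein, went from 1.22 ± 0.128 to 1.09 ± 0.0607 (SD, n = 5, exact p = 0.0238), which was 0.0714 after adjustment over the 3 ratios. Tmed10 was chosen after values were seen, and the adjustment does not cover that choice.

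Vps35 resembled other genes than Wls did. The genes most like it after removal of the group means were Rab2a (r = 0.97), Rpl15 (r = 0.96), Cdc42 (r = 0.95), Pik3c2a (r = 0.94) and Vcpip1 (r = 0.94). Rab2a is a small GTPase of the route between endoplasmic reticulum and Golgi, Cdc42 a small GTPase of cell polarity, and Pik3c2a a lipid kinase of endocytosis, whereas Rpl15 is a ribosomal protein. Over the 8 tumors without Villin-Wls cKO tumors 2 and 3, these r stayed between 0.84 and 0.99. With Vps29 the r of Vps35 was 0.60 over 10 tumors and 0.86 over 8, and with Wls it was -0.66 over 10 and 0.66 over 8, so that the latter turned with the removal of those tumors. Points in these correlations share library preparation and depth, and they are given as a description.

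Around the members, 61 genes of 7 wider lists were tested, and 9 of them passed (14.8%, beside 10.9% of all genes). Of these 8 were higher and 1 was lower in Villin-Wls cKO tumors. The median log2 change over the 61 genes was 0.09, that over all genes tested was 0.01, and 44 of the 61 were above 0. With equal FPKM sums 15 of these genes passed, 14 of them higher, and with quantile normalization 6 passed, 4 of them higher.

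Some immune cell markers were called higher in Villin-Wls cKO tumors, most of them T cell markers. Of 5 B and plasma cell markers in the table, 1 was called, Mzb1, an endoplasmic reticulum protein of plasma cells, which rose from 2.21 ± 2.32 to 8.69 ± 4.47 FPKM (SD, n = 5, adjusted p = 0.0331, limma). Jchain, the joining chain of secreted immunoglobulins, was at 50.9 ± 39.0 and 197 ± 133 FPKM (SD, n = 5) and did not pass (adjusted p = 0.0699, limma). The summed level of this list was 26.6 to 127 FPKM in controls and 68.4 to 355 FPKM in Villin-Wls cKO tumors, and no marker was at 0 in every tumor. Of 9 T cell markers 4 were called, all higher. These 4 were low, with means of 0.0923 to 1.75 FPKM in controls and 1.04 to 5.96 FPKM in Villin-Wls cKO tumors. The list summed to 13.5 to 22.0 FPKM in controls and 21.9 to 44.7 FPKM in Villin-Wls cKO tumors. Trac and Lck of this list have values identical to those of other gene names, so their part cannot be assigned to them alone. Of 8 macrophage markers 1 was called higher, Cd14, and of 10 fibroblast markers also 1, Fbln1. Over all genes tested 6.12% were called higher, a share to set beside these counts. In the macrophage list C1qa, C1qb, C1qc, Cd68 and Adgre1 had changes from -0.17 to -0.0059. In the T cell list Cd4 and Lck had changes of -0.05 and 0.08. No endothelial, smooth muscle or neutrophil marker was called. The part of these cells in the changes of the secretory genes was not tested.

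The coats of the early secretory route held most of these calls. Of 19 genes, 5 were higher and none was lower (26.3% called, beside 10.9% of all genes tested). Of the 19, 16 were above 0, and the median change was 0.19. The COPII coat forms vesicles that leave the endoplasmic reticulum, and the cargo-binding Sec24d and its partner Sec23b were higher. Sec24d lay at 11.3, 8.27, 17.8, 10.1 and 9.58 FPKM in control tumors 1 to 5 and at 16.4, 16.4, 18.4, 19.6 and 21.2 FPKM in Villin-Wls cKO tumors 1 to 5. Control tumor 3 reached into the Villin-Wls cKO range and the other 4 controls lay below it. Its change was 0.68, from 0.30 to 1.06 (adjusted p = 0.0299, limma). Sec23b changed by 0.32 (adjusted p = 0.0362, limma), from 37.9 ± 4.27 to 47.5 ± 3.48 FPKM (SD, n = 5).

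The COPI coat works in the return from the Golgi to the endoplasmic reticulum and within the Golgi, and 3 of its subunits were higher. Copg1 rose from 43.6 ± 4.71 to 54.1 ± 2.40 FPKM (SD, n = 5, change 0.31, adjusted p = 0.0256, limma), Arcn1 from 54.5 ± 1.72 to 65.3 ± 5.03 FPKM (SD, n = 5, change 0.25, adjusted p = 0.0291, limma) and Copb2 from 73.9 ± 3.84 to 87.8 ± 6.24 FPKM (SD, n = 5, change 0.24, adjusted p = 0.0372, limma). Cope, the most abundant gene of the list, did not pass at a change of 0.39 (adjusted p = 0.0658, limma). All 5 calls of the coat list lie near the threshold. All 5 were lost without control tumor 1, 2, 4 or 5 or Villin-Wls cKO tumor 3 or 5, each left out alone, and of these 5 genes only Arcn1 passed when Villin-Wls cKO tumors 2 and 3 were left out together.

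Among the 8 other p24 genes tested, Tmed3 and Tmed9 were higher and none was lower (25% called, beside 10.9% of all genes tested). The list median was 0.05, with 4 genes above 0. Tmed9 lay at 104, 107, 132, 116 and 116 FPKM in controls and at 137, 153, 154, 145 and 138 FPKM in Villin-Wls cKO tumors. The groups had no overlap, as was so for 10.1% of all genes tested. The change of Tmed9 was 0.34, from 0.18 to 0.50 (adjusted p = 0.016, limma). Tmed3 lay at 51.9 to 68.7 FPKM in controls and at 74.8 to 92.1 FPKM in Villin-Wls cKO tumors, also without overlap, at a change of 0.40 (adjusted p = 0.0205, limma). Tmed10, the p24 protein set against Tmed2 above, had a change of 0.16 (adjusted p = 0.163, limma). Without Villin-Wls cKO tumors 2 and 3, the adjusted p was 0.0609 for Tmed3 and 0.0954 for Tmed9 (limma). Tmed3 was also lost without Villin-Wls cKO tumor 3 alone (adjusted p = 0.0524, limma) and Tmed9 with quantile normalization (adjusted p = 0.0598, limma).

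Of 12 further retromer-linked genes and sorting nexins, Rab7 was higher, none was lower and the median change was 0.02. The share called, 8.33%, was below the 10.9% of all genes tested. Rab7 is the small GTPase of late endosomes that recruits retromer to membranes. It lay at 90.0, 87.4, 83.4, 88.4 and 86.2 FPKM in control tumors 1 to 5 and at 110.2, 104.6, 108.8, 101.0 and 107.9 FPKM in Villin-Wls cKO tumors 1 to 5. Every Villin-Wls cKO tumor was above every control, and 10.1% of all genes tested likewise had groups without overlap. The change of 0.29 for Rab7 had an interval from 0.18 to 0.40 (adjusted p = 0.00495, limma). Snx5, the most abundant gene of this list, changed by 0.03 (adjusted p = 0.885, limma).

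In the remaining intracellular lists no gene passed. The WASH complex, which builds actin on endosomes, had 5 genes tested with changes from -0.07 to 0.08, Ccdc53 being the most abundant at 39.8 ± 4.20 and 41.8 ± 1.59 FPKM (SD, n = 5). The 10 genes of clathrin-dependent uptake, which takes Wls back from the cell surface, changed by -0.06 to 0.18, and Clta, a clathrin light chain and the most abundant, by 0.01 (adjusted p = 0.946, limma). For the supply of palmitoleate, the stearoyl-CoA desaturases Scd1 and Scd2 had changes of 0.44 (adjusted p = 0.251, limma) and 0.31 (adjusted p = 0.173, limma). Scd2 and Scd3 have identical values in the table and cannot be told apart.

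Outside the cell, Notum, a secreted enzyme that removes the palmitoleate from Wnt ligands and itself a Wnt target gene, was lower and the other 3 genes tested did not pass. Notum lay at 402, 443, 283, 344 and 395 FPKM in control tumors 1 to 5 and at 222, 178, 171, 206 and 193 FPKM in Villin-Wls cKO tumors 1 to 5. The groups did not overlap, as for 10.1% of all genes tested, and the change was -0.93, from -1.20 to -0.66 (adjusted p = 0.00109, limma). Of the Wnt ligands, the cargo of this route, 11 of 19 were in the table. Of those 11, 4 were lower and none higher (36.4% called, beside 10.9% of all genes tested). These were Wnt10a at a change of -1.88 (adjusted p = 0.000473, limma), Wnt7a at -1.71 (adjusted p = 0.00388, limma), Wnt6 at -1.41 (adjusted p = 0.0013, limma) and Wnt5b at -0.79 (adjusted p = 0.0195, limma).

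**Figure D4:**
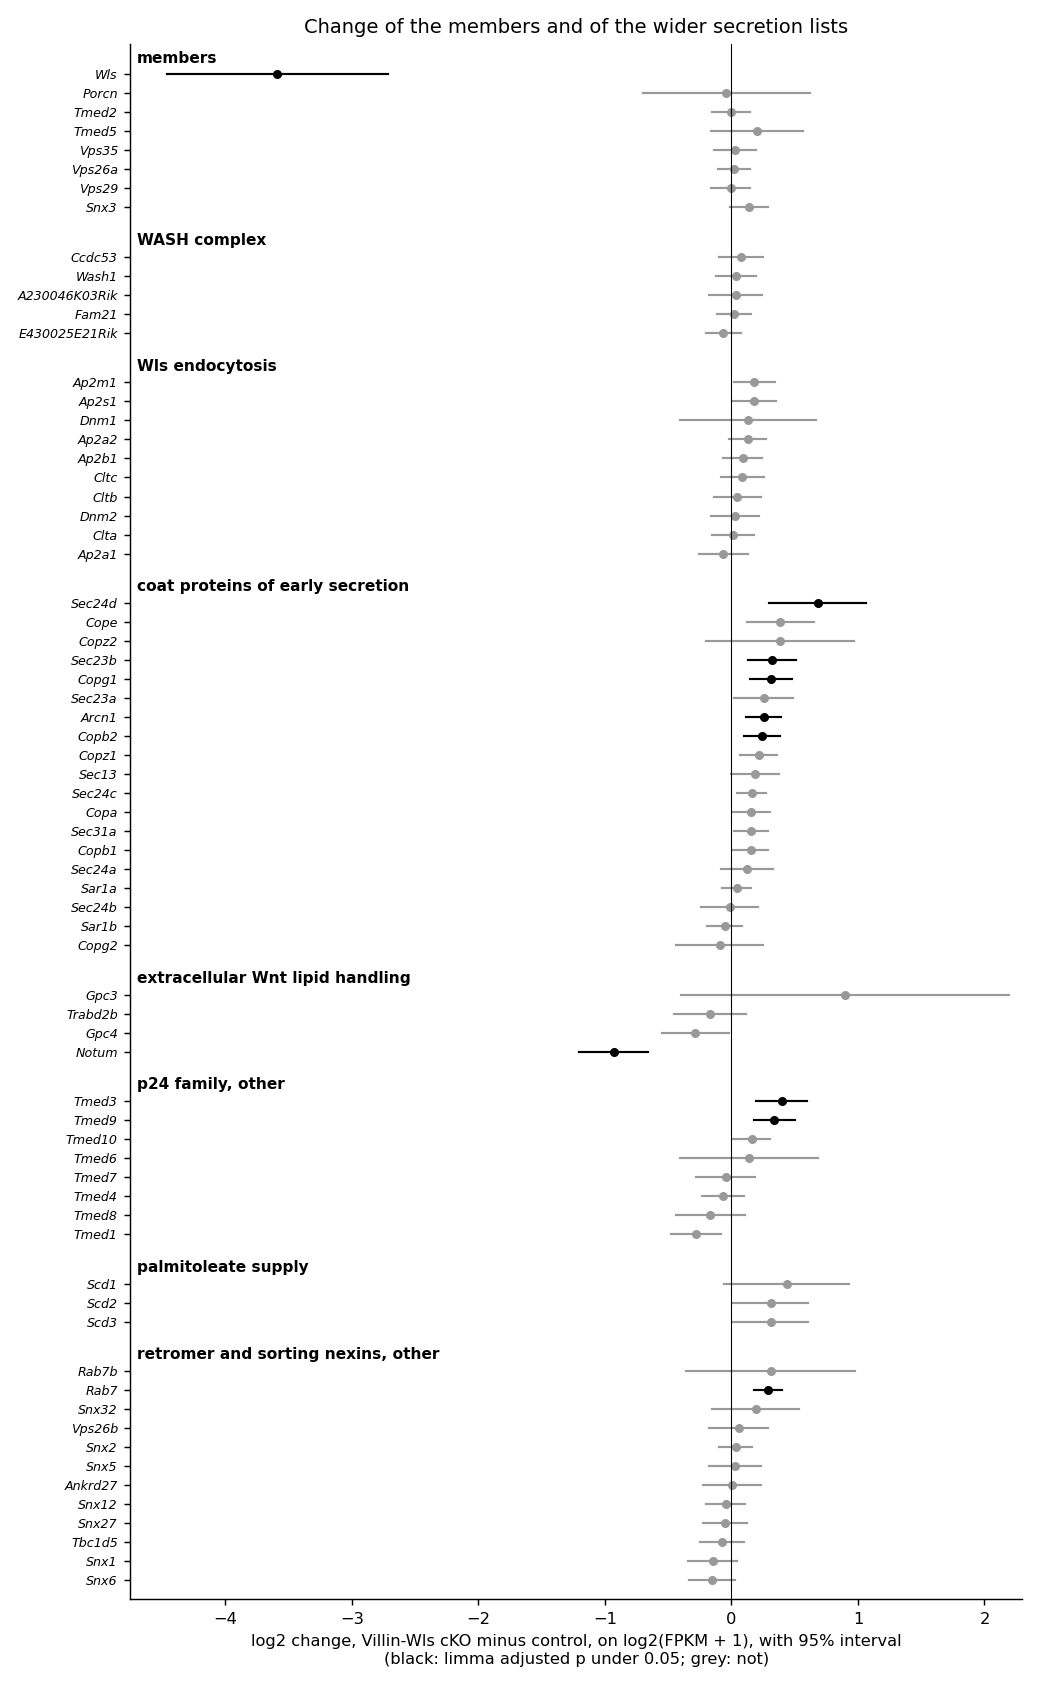
Log2 change, Villin-Wls cKO minus control on log2(FPKM + 1), with its 95% interval for the 8 members and the 61 genes of the wider lists, black where the limma adjusted p was under 0.05 and grey otherwise. Wls stands at -3.59 and Notum at -0.93 on the left, the 8 other called genes lie between 0.24 and 0.68, and the 7 further members lie around 0.

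The higher coat and p24 genes were also looked at for shared letters in their promoters, a search chosen after their values were seen. RefSeq windows from 250 bases before to 50 bases after the gene start (GRCm38.p6) were given for 7 of the 9 called genes and for 5 of the 8 members. The letters CCACGT, read on both strands, are a core shared by elements built around ACGT and are not particular to the endoplasmic reticulum stress response. They stood in the windows of 5 of the 7 called genes, against 9.40% of all 27025 genes with a window. Uncalled genes of the wider lists were not counted separately, so the count cannot set called genes apart from other secretory genes. The longer TGACGTGG, an element of that stress response, contains the reverse complement of the core. It was in the windows of Sec24d and Copb2, and in 0.714% of all genes. None of the 5 members with a window held either motif, nor ATCAAAG, the letters bound by TCF/LEF factors, which were in 4.29% of all genes and in 0 of the 7 called ones. A match is a description of the letters and not of binding, and a part of a stress response in these changes was not tested. The windows below are shown because they hold the core that these called genes share, in capitals as CCACGT or as its reverse complement ACGTGG, written 5′ to 3′ in the direction of the gene.
Sec24d, chr3:123267461-123267488, plus strand: ccgggcgcctgACGTGGcactagcaacc
Copg1, chr6:87887932-87887959, plus strand: tgctcagggcgACGTGGcgggcgggagt
Tmed3, chr9:89705228-89705255, minus strand: tttctccggagACGTGGcagacactaag
Tmed3, chr9:89704997-89705024, minus strand: ctgagctcgcgCCACGTctcttcagggg
Copb2, chr9:98563713-98563740, plus strand: tcccggaagttCCACGTcagtgggttgg
Tmed9, chr13:55593120-55593147, plus strand: tccgctgggctACGTGGctcggcagtct
The core began 24 bases before the gene start in Sec24d, 7 bases before it in Copb2 and 4 bases before it in Tmed9.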

How the data were processed

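Messenger RNA of 10 colon tumors was sequenced from stranded libraries. The authors mapped reads to GRCm38.p5 with TopHat2 2.1.1, assembled and quantified transcripts with Cufflinks 2.2.1 and Cuffdiff at default parameters, and deposited FPKM values per gene name. The annotation release and read totals are not given in the sources used here. All 10 columns matched a tumor by label and 0 were left over. FPKM sums were 1207683 to 1533885. Whole-read steps were not recovered (at most 6 of 112 genes with low values shared a ratio between control tumors 1 and 2), so no counting error is given and precision rests on the spread between tumors. No further depth is known.

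limma 3.58.1 in R 4.3.3 was run on log2(FPKM + 1), with a mean of at least 0.5 FPKM, eBayes with a trend and no covariates, and genes were called at an adjusted p (Benjamini-Hochberg) under 0.05. Simulated data with these genes gave 83 of 100 changes of 1 log2 unit, 95 of 100 of 2, 12 false calls, and 0 calls with nothing changed. The simulation used independent normal values and changed only better expressed genes. Changes below 1 log2 unit were not simulated, so recovery of the smaller changes in the text is not known. Exact permutation tests, correlations and figures used Python 3.11.15, scipy 1.17.1 and matplotlib 3.10.9. The members, gene lists, tests and alternatives were chosen with earlier results of these data known. Named are the members, wider-list genes past the threshold and the most abundant of each list, Vps26b, Wnt ligands past the threshold, the 5 genes most like Wls and Vps35, Wls neighbours within 500 kb, Vil1, Xist, Eif2s3y and Krt5. Krt20, Tmed10, Scd1, Mzb1, Jchain, Cd14, Fbln1 and the promoter motifs were chosen after values were seen. WASH genes were matched through older symbols in RefSeq, and an entry that is no subunit was taken out of that list. Positions are from GENCODE M21, promoters from RefSeq. Authors' comparison tables (fold changes, p-values) were not used. Alternatives covered pseudocount, scaling, filter, eBayes settings, tumor weights, a replicate block, identical entries counted once, and tumors left out.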

Additional observations from a re-analysis of the deposited data

Results flagged for a closer look

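Within-group outliers were searched by Dixon's ratio in the 34 groups of 5 values formed by the 8 members and the 9 called genes of the wider lists, where chance marks about 1 group in 20. In 2 groups a tumor stood apart, both times control tumor 3. Vps26a was at 22.5 FPKM there, against 25.0 to 25.8 FPKM in the other 4 control tumors, and Copg1 was at 51.8 FPKM, against 40.0 to 42.6 FPKM. That tumor also had the highest fibroblast marker sum of the controls, at 1058 FPKM against 305 to 740 FPKM. It was the highest control for epithelial (9728 FPKM), smooth muscle, endothelial, B and plasma cell and neutrophil marker sums as well. For T cell, macrophage, enteric glia and squamous markers another control was highest. The part of these cells in the values of Vps26a and Copg1 was not tested. Without control tumor 3 the change of Vps26a was -0.02 and Copg1 was still called.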

How the results depend on the processing

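Wls was called under all 22 refitted alternatives, with changes from -4.29 to -3.34 (adjusted p from 1.43e-06 to 0.00491, limma), and its log2 ratio of median FPKM was -4.37. No other member was called under any alternative, and the count of members called was 1 throughout. With a mean of at least 5 FPKM Porcn was not tested.

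Signs turned for members close to 0. With equal FPKM sums, where the median of all genes moved to 0.10, Porcn was at 0.038, Tmed2 at 0.10 and Vps29 at 0.10. Quantile normalization (median -0.05) put Vps35 at -0.051 and Vps26a at -0.022. Tumor quality weights put Vps29 at 0.0048. Without Villin-Wls cKO tumors 2 and 3, Tmed2 was at 0.0073 and Vps29 at 0.0068. The log2 ratio of median FPKM of Porcn was -0.63. The cause was not tested. With each tumor left out in turn, Porcn ranged from -0.25 to 0.11, Tmed2 from -0.042 to 0.028, Vps35 from -0.0060 to 0.063, Vps26a from -0.016 to 0.031 and Vps29 from -0.048 to 0.043.

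Of all genes 1822 were called, 1101 without Villin-Wls cKO tumors 2 and 3, and 1229 to 1986 with 1 tumor left out. Of the wider lists 9 were called, 15 with equal FPKM sums (the same 9 and 6 more), 4 without Villin-Wls cKO tumors 2 and 3 (3 of the 9), and 3 to 12 with 1 tumor left out, with 3 when Villin-Wls cKO tumor 3 was left out, 4 each without control tumor 2, 4 or 5 or Villin-Wls cKO tumor 5, and 5 without control tumor 1. Rab7 and Notum were called in all 22 alternatives, Tmed3 and Tmed9 in 20, Copg1 in 15, Sec24d in 14, Arcn1 in 13, Copb2 in 11 and Sec23b in 10, and their directions did not turn in any of them.

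Replicate numbers did not pair the tumors (r between same-numbered tumors -0.087 to 0.16). A replicate block gave 1627 called genes, the member count stayed at 1, and 9 wider-list genes were called, of which 8 were shared.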
